A study of Mus musculus with 12 samples.

Results

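The 9 genes studied as a group were 7 tubulin genes (Tubb2a, Tubb4b, Tubb5, Tubb6, Tuba1a, Tuba1b and Tuba1c) and 2 tropomyosin genes (Tpm3 and Tpm4), from 20551 genes in the count table. They were picked by name with earlier results of these libraries in view, and which comparison guided the choice was not recorded, so their own fold changes are given with a standard error (SE) as a description and without a p-value. All 9 of 9 passed the filter on low counts, as did 13729 genes in all. Sequencing covered RNA of airway macrophages (AMs) from 6-week-old C57BL/6 mice. Scnn1b-Tg mice (Tg in group names) overexpress the beta subunit of the epithelial sodium channel from the club cell secretory protein promoter, that is, in airway epithelium and not by design in AMs, and wild-type (WT) littermates were the controls. Cells were kept for 12 h in medium alone or with 100 ng/ml lipopolysaccharide (LPS) of Pseudomonas aeruginosa. Each genotype without and with LPS made a group of 3 libraries, 4 groups in all, and each pool of lavage cells from 3 to 4 animals gave 1 medium and 1 LPS library. The pools were WT 16, 17 and 18 and Scnn1b-Tg 17, 18 and 19. WT 16, WT 17 and Tg 17 formed library batch 1, and WT 18, Tg 18 and Tg 19 formed batch 2. The labels describe cells that adhered to plastic, whereas the methods describe AMs sorted by flow cytometry.

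Alpha- and beta-tubulin form the heterodimers that polymerise into microtubules, the tracks for vesicle and phagosome transport. Mammals carry several genes, or isotypes, of each, which encode closely similar proteins that differ mostly at their acidic carboxyl ends. Tubulin mRNAs are also under autoregulation, in which the factor TTC5 binds the first residues of the growing tubulin chain on the ribosome and recruits mRNA decay when free tubulin is in excess. Tropomyosins are coiled coils that lie along actin filaments and decide which myosins and actin-severing proteins reach them. Tpm3 and Tpm4 are the main tropomyosin genes of many non-muscle cells.

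The coding starts are shown because autoregulation reads this stretch and because they show how alike the isotypes are. Each line gives the first 30 coding bases from GENCODE transcripts on the GRCm38 build (mm10), 5′ to 3′, with the first 12 bases, the stretch that encodes the residues read by TTC5 in tubulins, in capitals.
Tubb2a: ATGCGCGAGATCgtgcacatccaggcgggc
Tubb4b: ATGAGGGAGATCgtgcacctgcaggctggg
Tubb5: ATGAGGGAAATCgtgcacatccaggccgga
Tuba1a: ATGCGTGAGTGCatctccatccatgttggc
Tuba1b: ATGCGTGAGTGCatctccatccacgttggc
Tuba1c: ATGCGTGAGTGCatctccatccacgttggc
The 8 beta-tubulin genes of the table held 7 different versions of these 12 bases and the 5 alpha-tubulin genes held 3. Over the whole coding sequence, Tuba1a and Tuba1b were 98.3% identical, Tuba1b and Tuba1c 97.9%, and Tuba1a and Tuba1c 97.1%. Among the 4 beta-tubulin genes studied, pairs ranged from 80.2% (Tubb5 and Tubb6) to 84.6% (Tubb2a and Tubb5). Tpm3 and Tpm4 were 62.3% identical.

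This likeness bears on the counts. A window of 125 bases, the read length, recurred in the transcript of at least 1 other gene for 65.1% of windows of Tuba1b, 61.2% of Tuba1a and 50.1% of Tuba1c, which matched one another and several processed pseudogenes. For Tpm3 the share was 38.3%, all with the retrogene Tpm3-rs7, for Tubb2a 31.5%, mainly with its neighbour Tubb2b, for Tubb4b 21.7%, mainly with Tubb4b-ps1, and for Tpm4 6.99%. Tubb5 and Tubb6 had none. Levels of the 3 alpha-tubulin genes, of Tpm3 and of Tubb2a could therefore be split between copies by the counting and are uncertain to that extent. Counting also ignored strand, and exons of Tuba1a and Tuba1b overlapped the gene Gm49450, while 6.08% of the exon length of Tpm4 overlapped the antisense gene Gm26586.

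On the GRCm38 build, Tuba1b (chr15:98931425-98934565), Tuba1a (chr15:98949837-98953703) and Tuba1c (chr15:99029891-99038110) lay in 1 cluster. Tubb2a (chr13:34074274-34078007) lay beside Tubb2b (chr13:34126748-34130466). Tubb4b was at chr2:25222160-25224702, Tubb5 at chr17:35833921-35838306, Tpm3 at chr3:90072649-90100902 and Tpm4 at chr8:72134975-72153142. The 250 bases before the RefSeq start (GRCm38.p6) of 2 genes whose mRNA was higher with LPS are given to show how their promoters differ, with matches to the motifs searched in capitals. The Tubb2a window (chr13:34078009-34078258, minus strand) held a cyclic AMP response element, TGACGTCA, starting 59 bases and a TATAAA starting 29 bases before the start.
Tubb2a: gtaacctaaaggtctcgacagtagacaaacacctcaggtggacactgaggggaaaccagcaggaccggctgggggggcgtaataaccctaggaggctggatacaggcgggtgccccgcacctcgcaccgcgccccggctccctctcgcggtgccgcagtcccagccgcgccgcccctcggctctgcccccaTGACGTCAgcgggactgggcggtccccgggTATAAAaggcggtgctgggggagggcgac
The Tubb4b window (chr2:25224703-25224952, minus strand) held neither, but CCAAT 5 times.
Tubb4b: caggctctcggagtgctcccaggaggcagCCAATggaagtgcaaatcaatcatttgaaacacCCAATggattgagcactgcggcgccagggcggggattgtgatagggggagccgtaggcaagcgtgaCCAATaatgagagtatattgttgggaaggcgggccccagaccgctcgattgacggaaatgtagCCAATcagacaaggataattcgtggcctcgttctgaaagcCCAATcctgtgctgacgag
Searched on both strands in 32851 windows of this length, TGACGTCA was in 1.55%, TATAAA in 12.4% and CCAAT in 33.8%. CCAAT also occurred in the windows of Tubb5 (2 matches), Tuba1a and Tuba1c (1 each). A CArG box, the site of serum response factor, was in 1.47% of all windows and the AP-1 letters TGANTCA in 6.75%, and neither was in a window of the 8 genes searched, to which Tubb6 did not belong. A match is a stretch of letters, and no binding was measured.

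Library totals were 48.2 to 60.9 M deposited counts, and levels are given as CPM, counts scaled to a common library total with TMM factors, as mean ± SD over 3 libraries. Of 10 AM markers, all were detected, with summed levels of 8907 to 17555 CPM over the 12 libraries, whereas 4 monocyte markers summed to 0.570 to 2.05 CPM and 6 T and B cell markers to 0.417 to 1.44 CPM. Chil3 alone made up most of the AM sum. Scnn1b itself lay at 0 to 0.755 CPM in the 12 libraries with the genotypes overlapping, and since the transgene is driven in epithelium this does not check the labels. Replicate libraries of a group differed by more than counting noise, and none was left out.

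All 9 genes were expressed at high levels. By mean CPM per kb of exon over the 12 libraries, the scale on which genes can be compared, Tubb4b was 101st and Tuba1b 134th of 13544 genes, and Tuba1a, the lowest of the 9, was 1173rd. In medium, WT AMs held 362 ± 30.8 CPM per kb of Tuba1b and 332 ± 29.7 of Tubb4b, whose ranges over libraries overlapped. Tuba1c followed with 188 ± 18.6 CPM per kb, and Tpm4, Tubb6, Tubb5 and Tubb2a lay from 122 ± 7.38 down to 104 ± 5.23, each overlapping its neighbour. Tpm3 (87.2 ± 3.67 CPM per kb) and Tuba1a (47.6 ± 3.72) stood apart below them. With LPS the order changed, and Tubb4b led in WT (487 ± 24.2 CPM per kb) and in Scnn1b-Tg AMs (457 ± 39.8), with no library of Tuba1b as high.

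**Figure D1:**
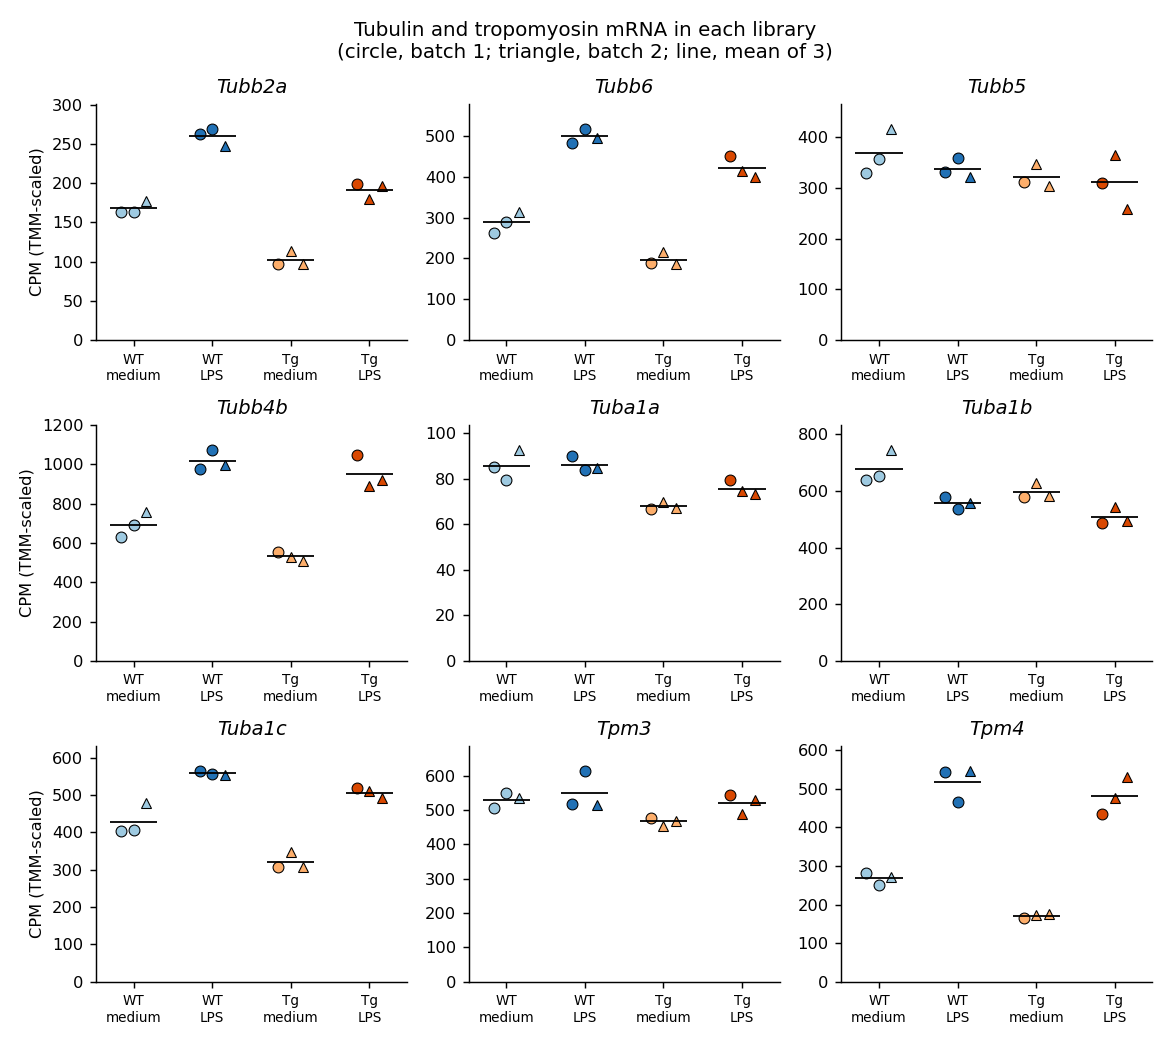
Level of each of the 9 genes (y axis, TMM-scaled CPM from 0) in the 12 libraries by group, with circles for batch 1, triangles for batch 2 and a line at the mean of 3. Tubb2a, Tubb6, Tubb4b, Tuba1c and Tpm4 were higher in every LPS library than in every medium library of the same genotype, whereas Tubb5 overlapped between all 4 groups.

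LPS against medium answered how the macrophages respond to a bacterial stimulus. Of the 9 genes, 5 were called higher with LPS (adj. P value under 0.05 by the edgeR quasi-likelihood test over all genes) and 1, Tuba1b, lower in WT AMs, and the same 5 and 1 were called in Scnn1b-Tg AMs. Across all genes tested, 15.5% were called higher and 16.2% lower in WT, and 19.3% and 18.7% in Scnn1b-Tg AMs. By ranges, LPS libraries lay wholly above medium libraries for 5 of 9 genes and wholly below for 1 in WT, and for 7 and 1 in Scnn1b-Tg AMs, where 18.7% and 20.0% of all genes did so in WT and 22.3% and 21.5% in Scnn1b-Tg. Since the choice of the 9 genes may have used these comparisons, the counts are given beside that background and nothing is read from them. The median log2 fold change of the 9 was 0.38 in WT and 0.66 in Scnn1b-Tg, against 0.0029 and -0.015 for all genes.

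Tpm4, which codes for a short tropomyosin of stress fibres and the cell cortex, had the largest change of the 9. Its levels in WT medium libraries 16, 17 and 18 were 282, 250 and 273 CPM, and in the LPS libraries of the same pools 544, 465 and 546 CPM. In Scnn1b-Tg pools 17, 18 and 19 they were 165, 173 and 176 CPM in medium and 434, 476 and 531 CPM with LPS. Every LPS library was thus far above every medium library, and the medium levels of Scnn1b-Tg AMs lay below all others. In WT the log2 fold change was 0.95 (SE 0.084), or 1.93-fold, and in Scnn1b-Tg AMs it was 1.49 (SE 0.086), or 2.80-fold. Within batch 1 and batch 2 it was 0.92 and 1.00 in WT and 1.40 and 1.53 in Scnn1b-Tg.

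Tpm3, the other abundant tropomyosin gene, moved little. It stood at 506, 550 and 536 CPM in WT medium and at 517, 614 and 516 CPM in WT LPS libraries, which overlapped. In Scnn1b-Tg AMs it was 478, 455 and 468 CPM in medium and 545, 489 and 528 CPM with LPS, with LPS above medium in each pool. The log2 fold changes were 0.05 (SE 0.080) and 0.16 (SE 0.080), neither past the threshold, and in WT the sign differed between batch 1 (0.096) and batch 2 (-0.054).

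Of the 4 beta-tubulin genes among the 9, Tubb6, a broadly expressed isotype whose gene is on chromosome 18, showed the largest change. It rose from 263, 291 and 314 CPM to 485, 518 and 496 CPM in WT pools 16, 17 and 18. In Scnn1b-Tg pools 17, 18 and 19 the levels were 189, 216 and 186 CPM in medium and 451, 415 and 400 CPM with LPS. The groups did not overlap in either genotype, and the log2 fold changes for WT and Scnn1b-Tg were 0.79 (SE 0.090) and 1.10 (SE 0.091).

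Tubb2a, best known from neurons, was also higher with LPS in every pool. WT libraries held 163, 164 and 178 CPM in medium and 262, 269 and 248 CPM with LPS. Scnn1b-Tg libraries held 97.2, 114 and 96.8 CPM in medium and 199, 180 and 196 CPM with LPS, and the lowest of these LPS libraries was level with the highest WT medium library. The log2 fold changes were 0.63 (SE 0.085) and 0.90 (SE 0.086).

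Tubb4b, the most abundant beta-tubulin mRNA per kb in every group, went from 632, 693 and 756 CPM to 979, 1074 and 998 CPM in WT. In Scnn1b-Tg it went from 555, 531 and 511 CPM to 1048, 892 and 921 CPM. No medium library reached an LPS library of its genotype, and the LPS levels of the genotypes overlapped. The log2 fold changes were 0.55 (SE 0.089) and 0.84 (SE 0.090).

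Tubb5 was the beta-tubulin gene that did not follow. This isotype is widespread and abundant in dividing cells. Its levels were 330, 357 and 417 CPM in WT medium and 331, 360 and 322 CPM in WT LPS. They were 312, 348 and 304 CPM in Scnn1b-Tg medium and 311, 366 and 258 CPM in Scnn1b-Tg LPS, and all 4 groups overlapped. The log2 fold changes with LPS were -0.12 (SE 0.13) and -0.04 (SE 0.13), not past the threshold.

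The alpha-tubulin genes of the chromosome 15 cluster went different ways. Tuba1c was 403, 406 and 478 CPM in WT medium and 565, 557 and 554 CPM with LPS, and 306, 347 and 308 CPM in Scnn1b-Tg medium and 518, 510 and 491 CPM with LPS. Its groups were apart in both genotypes, with log2 fold changes of 0.38 (SE 0.079) and 0.66 (SE 0.079). Tuba1b, the alpha-tubulin gene with the highest level per kb, was lower with LPS, at 640, 652 and 745 CPM in WT medium against 580, 537 and 556 CPM with LPS, and at 579, 627 and 582 CPM against 488, 542 and 494 CPM in Scnn1b-Tg AMs. The groups did not overlap, yet the shift was small, the log2 fold change being -0.28 (SE 0.074) in WT and, for Scnn1b-Tg, -0.23 (SE 0.073). Its call was lost in WT without WT medium 18 or WT LPS 18, and in Scnn1b-Tg without Tg medium 17, Tg medium 18, Tg LPS 17 or Tg LPS 19, where 5 of 9 genes were then called.

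Tuba1a had the lowest level of the 9. Its log2 fold change was 0.01 (SE 0.078) in WT, with libraries at 79.3 to 92.7 CPM in medium and 83.8 to 90.2 CPM with LPS. In Scnn1b-Tg AMs it was 0.16 (SE 0.078), with 66.5 to 69.8 CPM in medium and 73.2 to 79.5 CPM with LPS. Since 61.2% and 65.1% of the read-length windows of Tuba1a and Tuba1b recur elsewhere, reads of one may have been counted for the other. The pseudogene Gm14150, which holds 24.6% of the windows of Tuba1b, had 42.3 ± 2.56 CPM in WT medium and 36.6 ± 2.08 CPM in WT LPS.

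Each pool gave a medium and an LPS library, so the change could also be read within a pool. For Tpm4, Tubb6, Tubb2a, Tubb4b and Tuba1c, LPS was higher in 6 of 6 pools, and for Tuba1b it was lower in 6 of 6. The pool changes of Tpm4 were 0.95, 0.89 and 1.00 (log2) in WT and 1.40, 1.46 and 1.60 in Scnn1b-Tg AMs, with no overlap. For Tubb4b they were 0.63, 0.63 and 0.40 in WT and 0.92, 0.75 and 0.85 in Scnn1b-Tg, again without overlap, as for Tuba1a, Tuba1c and Tubb6. For these 5 of 9 genes every Scnn1b-Tg pool had a higher change than every WT pool, as had 9.10% of all genes tested, and nothing is read from that count since the choice of the 9 may have used it. For Tubb2a, Tg 18 (0.66) lay inside the WT range of 0.48 to 0.72. By batch, the WT changes of Tubb2a, Tubb6, Tubb4b and Tuba1c were 0.70, 0.86, 0.63 and 0.47 in batch 1 and 0.48, 0.66, 0.40 and 0.21 in batch 2, so WT 18 had the smaller change for each of these.

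**Figure D2:**
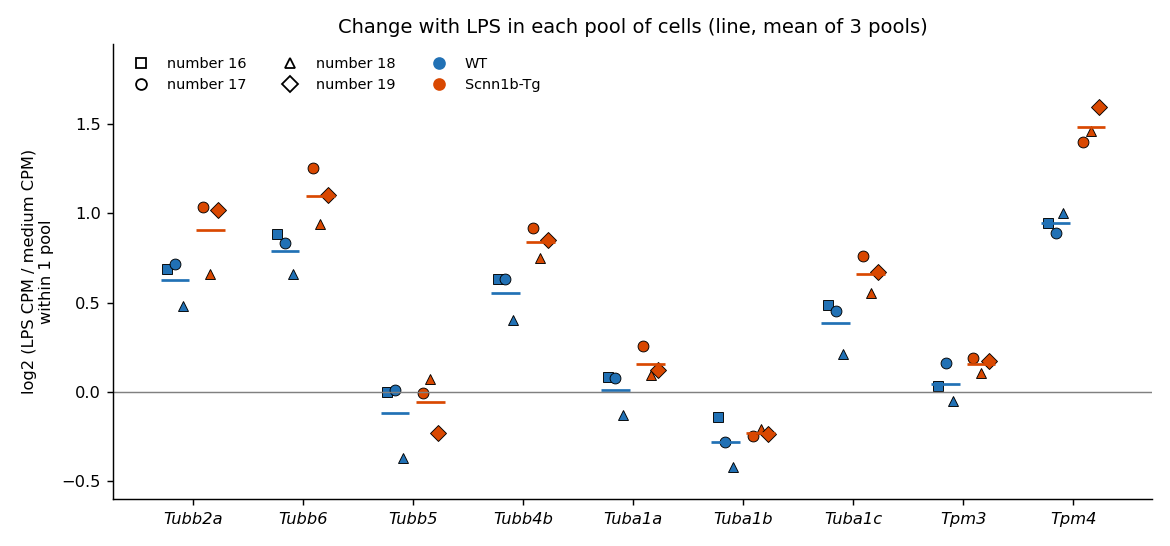
Change with LPS within each pool (y axis, log2 of LPS over medium CPM) for the 9 genes, in blue for WT and orange for Scnn1b-Tg, with a symbol for each pool number and a line at the mean of 3 pools. The Scnn1b-Tg pools lie above the WT pools for Tubb6, Tubb4b, Tuba1a, Tuba1c and Tpm4, by most for Tpm4 (1.40 to 1.60 against 0.89 to 1.00).

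In the model, the LPS response of Scnn1b-Tg minus that of WT was 0.54 (SE 0.12) on the log2 scale for Tpm4, 0.31 (SE 0.13) for Tubb6, 0.29 (SE 0.13) for Tubb4b, 0.28 (SE 0.11) for Tuba1c and 0.27 (SE 0.12) for Tubb2a. Those of Tuba1a (0.15), Tpm3 (0.11), Tubb5 (0.08) and Tuba1b (0.05) were within 1.5 times their SE. With edgeR, 0 of 13729 genes (0%) passed the threshold for this difference, the lowest adj. P value being 0.271. An unadjusted p under 0.05 was found for 817 of 13729 genes and for 5 of the 9. Nothing is read from the count of the 9, since their choice may have used this comparison. DESeq2 called 77 genes, of which Tpm4 was 1.

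Scnn1b-Tg against WT AMs in medium asked how the genotypes differ after 12 h of culture without LPS. All 9 genes had a lower mean in Scnn1b-Tg AMs, and for all but Tubb5 every Scnn1b-Tg library lay below every WT library, where 9.38% of all genes did so. Of the 9, 3 were called lower, Tubb2a with a log2 fold change of -0.72 (SE 0.088, 0.609-fold), Tpm4 with -0.69 (SE 0.087, 0.621-fold) and Tubb6 with -0.56 (SE 0.092, 0.677-fold). Of all genes, 0.168% were called lower, 23 in number, and again nothing is read from the count of the 9 against it. The other 6 ranged from -0.44 (SE 0.081) for Tuba1c to -0.16 (SE 0.082) for Tpm3, and the median of the 9 was -0.37 against 0.0060 over all genes.

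The 3 calls rested on few libraries. Without WT medium 18, Tg medium 17 or Tg medium 19, 0 of 9 genes were called, and 8, 3 and 5 genes were called in all. Tubb6 also lost its call without WT medium 16, WT medium 17, WT LPS 18 or any one of the Scnn1b-Tg LPS libraries. Whichever library was left out, the fold changes were -0.79 to -0.66 for Tubb2a, -0.75 to -0.63 for Tpm4 and -0.63 to -0.49 for Tubb6. In batch 1 (Tg 17 against WT 16 and 17) and batch 2 (Tg 18 and 19 against WT 18), Tubb2a differed by -0.75 and -0.76 and Tpm4 by -0.69 and -0.64. Each of the 9 genes was lower in Scnn1b-Tg in both batches.

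Beside this, the 4 club cell markers summed to 58.6 to 78.9 CPM in WT medium and 16.8 to 35.8 CPM in Scnn1b-Tg medium libraries, without overlap, although 0 of 4 passed the test. Ciliated cell markers, of which 5 of 8 were in the table, summed to 1.24 to 2.09 and 1.18 to 1.35 CPM, and the 10 AM markers to 11961 to 12830 and 14157 to 17555 CPM. Chil3 made up most of the AM sum, with means of 9971 and 12604 CPM. Marco had a lower mean in Scnn1b-Tg (631 and 512 CPM, with overlap), Siglecf was nearly level (115 and 118 CPM) and the rest had higher means. By edgeR, 0 of the 10 passed the test. Markers of cycling cells summed to 84.7 to 123 and 72.6 to 151 CPM. Neutrophil markers (7.43 to 10.1 and 10.9 to 19.2 CPM) and smooth muscle and fibroblast markers (2.73 to 3.32 and 4.18 to 5.25 CPM) were somewhat higher in every Scnn1b-Tg medium library. No marker in the table was at 0 in all libraries. The part of these in the lower tubulin and tropomyosin levels was not tested. In bulk RNA, fewer cells of a type and less RNA per cell cannot be told apart.

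The same comparison was made among cells given LPS. All 9 means were again lower in Scnn1b-Tg AMs, with log2 fold changes from -0.44 (SE 0.087) for Tubb2a and -0.25 (SE 0.092) for Tubb6 to -0.06 (SE 0.082) for Tpm3. For 4 genes (Tubb2a, Tubb6, Tuba1a and Tuba1c) the genotypes did not overlap, against 3.39% of all genes that were lower without overlap. None of the 9 was called, of 7 genes called in all (0.0510%), whereas DESeq2 called Tubb2a. An unadjusted p under 0.05 was found for 978 of 13729 genes and for 3 of the 9. Nothing is read from the count of the 9, since their choice may have used this comparison. For Tpm4 the log2 difference was -0.69 in medium and -0.15 (SE 0.086) with LPS. Tubb4b (-0.08, SE 0.091) changed sign between batch 1 (0.032) and batch 2 (-0.14). The comparisons in medium and with LPS use the same medium or LPS libraries as those above and are not independent of them.

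**Figure D3:**
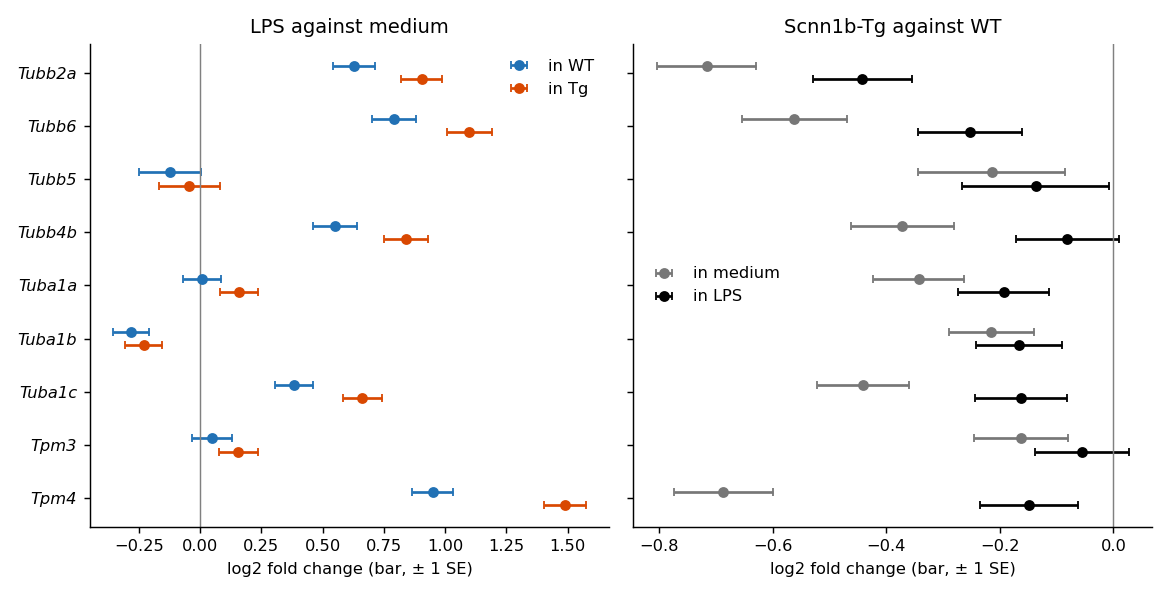
Fitted log2 fold changes (x axis, bars ± 1 SE) of the 9 genes for LPS against medium in WT and Scnn1b-Tg AMs (left) and for Scnn1b-Tg against WT in medium and with LPS (right, with its own scale). In the right panel all 18 points lie below 0, and Tubb2a, Tpm4 and Tubb6 are lowest in medium.

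Because tubulin genes have similar products, the makeup of each family is informative. Levels per kb were summed over the 5 alpha-tubulin, 8 beta-tubulin and 4 tropomyosin genes of the table. Beta-tubulin summed to 678 ± 58.4 CPM per kb in WT medium and 978 ± 44.2 with LPS, 1.44-fold more, and to 503 ± 23.8 and 859 ± 55.7 in Scnn1b-Tg AMs, 1.71-fold more. Alpha-tubulin went from 729 ± 56.8 to 766 ± 10.6 in WT, with WT 18 lower (-0.067 on the log2 scale) and WT 16 and 17 higher, and from 602 ± 31.2 to 701 ± 16.1 in Scnn1b-Tg, higher in 3 of 3 pools. The ratio of alpha to beta mRNA was thereby 1.04 to 1.11 in WT medium and 0.739 to 0.816 in WT LPS libraries, and 1.17 to 1.21 and 0.767 to 0.856 in Scnn1b-Tg. Medium and LPS libraries were apart in both genotypes. These sums inherit the choice of the 9 genes, which make up most of them, and are a description. They also depend on the length used. Per kb of the longest transcript, alpha- and beta-tubulin summed to 825 and 855 in WT medium, with beta ahead there, and to 879 and 1233 in WT LPS. The alpha sum includes Tuba4a, of whose exon length 37.3% overlaps Stk16.

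Within alpha-tubulin, Tuba1b went from 49.7% ± 0.383 to 38.9% ± 1.08 of the summed level in WT and from 52.8% ± 0.649 to 38.6% ± 1.89 in Scnn1b-Tg, while Tuba1c went from 25.7% ± 0.526 to 31.9% ± 0.120 and from 23.3% ± 0.544 to 31.6% ± 0.397. Tuba4a, outside the 9, took most of the rest. Within beta-tubulin, Tubb4b kept 49.0% to 53.2% in all groups and Tubb5 went from 16.3% ± 0.577 to 10.4% ± 0.171 in WT and from 19.2% ± 0.634 to 10.9% ± 1.99 in Scnn1b-Tg. Tubb6 went from 17.5% ± 0.191 to 21.0% ± 0.373 and from 16.1% ± 0.744 to 20.2% ± 0.255. Within tropomyosin, the Tpm4 share went from 57.8% ± 2.42 to 71.1% ± 3.86 in WT and from 49.8% ± 1.20 to 70.5% ± 2.46 in Scnn1b-Tg. All these shares depend on the length used. Per kb of the longest transcript or without length scaling, Tuba1b held 40.4% to 47.2% in WT medium and 30.1% to 36.4% in WT LPS. Tuba4a held 20.9% to 29.1% and 26.1% to 35.1%, and Tubb5 16.2% to 23.8% and 10.3% to 15.6%. Among tropomyosins, Tpm3 has 16 annotated transcripts. Per kb of the longest transcript Tpm4 held 35.7% in WT medium and 50.1% in WT LPS, with the same direction but Tpm3 ahead in medium.

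**Figure D4:**
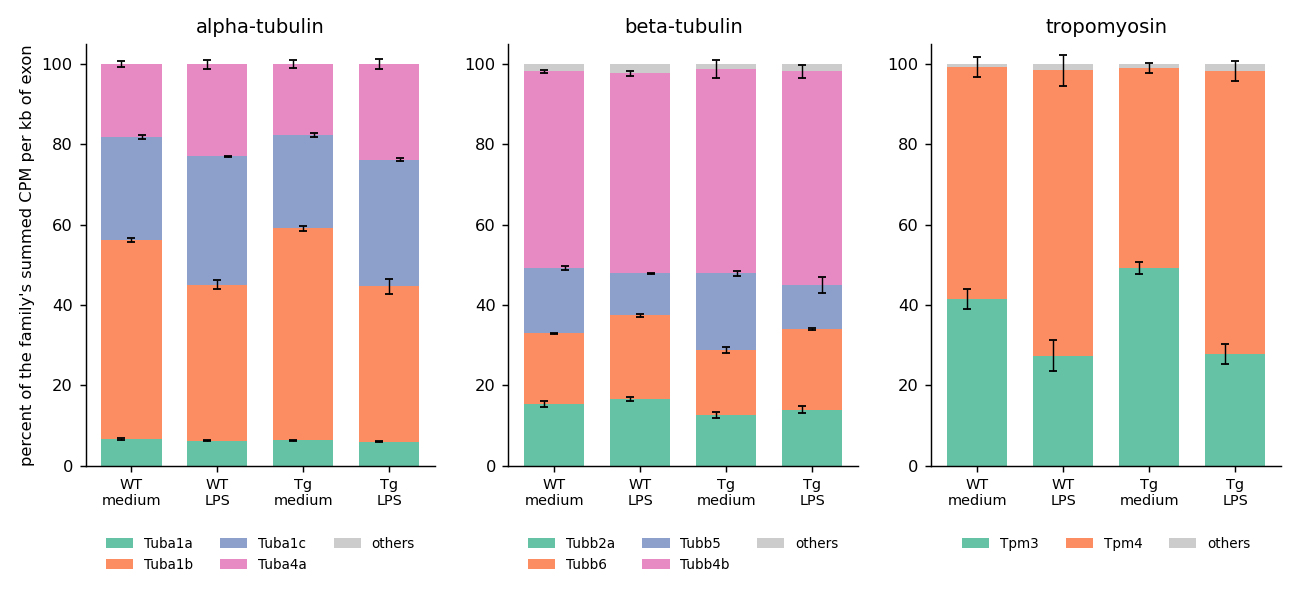
Share of each gene in the summed CPM per kb of its family (y axis, percent; stacked bars are means of 3 libraries, error bars ± 1 SD of the gene whose segment they end) in the 4 groups. With LPS the Tuba1b, Tubb5 and Tpm3 segments are smaller and those of Tuba1c, Tubb6 and Tpm4 larger in both genotypes, for example Tubb5 at 16.3% and 10.4% in WT.

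Of the other tubulins, 10 were in the table and 9 were tested. With LPS, 4 were called higher in both genotypes and 1 lower, against 15.5% and 16.2% of all genes in WT and 19.3% and 18.7% in Scnn1b-Tg. The median log2 fold change of the 9 tested was 0.47 in WT and 0.10 in Scnn1b-Tg. The Scnn1b-Tg median was the value of Tubb3 (SE 0.68), a gene at 0.286 CPM in medium and 0.297 CPM with LPS there. Each of the 4 genes called higher had a larger rise in Scnn1b-Tg than in WT, whereas the fold changes of Tubb3, Tubg2 and Tube1 were lower there. By edgeR, 0 of the 9 were called for the difference of responses. Tubb4a, a brain isotype, had the largest rise, from 10.3 ± 2.33 to 24.5 ± 6.77 CPM in WT (log2 fold change 1.23, SE 0.23, adj. P value 0.0018) and from 4.07 ± 1.41 to 15.1 ± 3.39 CPM in Scnn1b-Tg (1.87, SE 0.25, adj. P value 0.000118). Tubb2b, which shares windows with Tubb2a, rose by 0.67 and 0.90 (adj. P values 0.00077 and 7.33e-05). Tuba4a rose by 0.42 and 0.65 (adj. P values 0.00166 and 5.42e-05), but 37.3% of its exon length overlaps Stk16. The gamma-tubulin gene Tubg1, whose product nucleates microtubules at the centrosome, rose by 0.47 and 0.77 (adj. P values 0.00124 and 2.51e-05), and the delta-tubulin gene Tubd1 was the one that fell, by 0.66 and 0.65 on the log2 scale (adj. P values 0.00256 and 0.00219). Tubb1, Tubb3 and Tubg2 stayed under 0.5 CPM in every group mean, Tube1 lay at 1.11 to 1.51 CPM, and none of these 4 passed the test. The platelet isotype Tubb1 had group means of at most 0.228 CPM, and Tuba8 was at or near 0. Tpm1, a tropomyosin gene outside the 9, rose from 9.73 ± 3.22 to 31.9 ± 6.67 CPM in WT (log2 fold change 1.73, SE 0.16, adj. P value 9.22e-06). In Scnn1b-Tg it rose from 8.89 ± 3.14 to 34.9 ± 4.13 CPM (2.02, SE 0.16, adj. P value 2.19e-06). It has 21 annotated transcripts, which were not told apart. Tpm2 was at 0.063 to 0.220 CPM and did not pass. In medium, none of these 11 genes differed between Scnn1b-Tg and WT at the threshold by edgeR, with DESeq2 calling 3 tubulins.

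Genes that fold tubulin were next considered. Of 21 tested, 7 were called higher and 1 (Arl2) lower with LPS in WT, and 8 higher in Scnn1b-Tg, against 15.5% and 16.2% of all genes in WT and 19.3% and 18.7% in Scnn1b-Tg (higher and lower). The median log2 fold change of the list was 0.22 in WT and 0.28 in Scnn1b-Tg. Cct3 and Cct7, subunits of the chaperonin that folds tubulin and actin, rose by 0.68 and 0.53 in WT and by 1.06 and 0.73 in Scnn1b-Tg (adj. P values from 2.39e-07 to 6.30e-05), and Cct2, Cct4, Cct6a and Tcp1 of the same complex were also called higher in both genotypes. Between genotypes in medium, 0 of the 21 folding genes were called by edgeR. Tcp1, Cct2, Cct3, Cct4, Cct6a, Cct7, Cct8 and Vbp1 were lower in every Scnn1b-Tg than in every WT medium library, as were 9.38% of all genes. Their log2 fold changes ranged from -0.30 (Cct2) to -0.13 (Cct3), and the rest of the list overlapped. Of 6 genes for autoregulation of tubulin mRNA (Ttc5, Scaper, Cnot11 and 3 further subunits of the CCR4-NOT deadenylase), 0 were called with LPS in either genotype by edgeR.

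Among 19 tested genes that bind microtubules or set their dynamics, 2 were called higher and 4 lower in WT, and 2 higher and 7 lower in Scnn1b-Tg, where 15.5% and 16.2% of all genes were called higher and lower in WT and 19.3% and 18.7% in Scnn1b-Tg. The list medians were -0.03 and -0.17 on the log2 scale. Clip1, which tracks growing plus ends, rose by 1.02 and 0.90 (adj. P values 4.50e-05 and 7.86e-05) and Camsap1, which caps minus ends, by 0.78 and 0.76 (adj. P values 0.0167 and 0.0154). Mapre3, an end-binding protein, fell by 0.71 and 0.66 (adj. P values 0.00224 and 0.00281), and Stmn1, which sequesters tubulin dimers, fell by 0.58 and 0.59 on the log2 scale (adj. P values 0.0196 and 0.0144). Of 12 modifying enzymes, Ttl, the tubulin tyrosine ligase, and Ttll12 were called higher and Vash2 lower in both genotypes, numbers near those all-gene shares. Ttl rose by 0.42 and 0.53 (adj. P values 0.0486 and 0.0142) and Ttll12 by 0.44 and 0.43 (adj. P values 0.0137 and 0.0131). Of 8 genes of the gamma-tubulin ring complex, 0 were called in WT and 1 (Mzt1, higher) in Scnn1b-Tg.

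Actin and tropomyosin partners were considered last. Of 18 tested, 2 (Actr3 and Cfl2) were called higher and 7 lower with LPS in WT, and the same 2 higher and 6 lower in Scnn1b-Tg, against 15.5% and 16.2% of all genes in WT and 19.3% and 18.7% in Scnn1b-Tg, with list medians of -0.16 and -0.11. Gsn, coding for the actin-severing protein gelsolin, fell by 0.57 and 0.78 on the log2 scale (adj. P values 0.000517 and 4.02e-05). Myl12b, a regulatory light chain of non-muscle myosin, fell by 0.63 and 0.63 (adj. P values 0.000361 and 0.000285), while Cfl2, a cofilin, rose by 0.36 and 0.54 (adj. P values 0.0332 and 0.00359). Of 10 tested genes of the serum response factor group, Actn1, Tagln2 and Vcl were called higher and Mrtfa, a coactivator of that factor, lower in both genotypes, beside the same all-gene shares. Tagln2 rose by 0.64 and 0.97 (adj. P values 4.91e-05 and 1.59e-06), Vcl, coding for the focal adhesion protein vinculin, by 1.19 and 1.14 (adj. P values 0.0189 and 0.0167), and Mrtfa fell by 0.54 and 0.80 (adj. P values 0.00827 and 0.000597).

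**Figure D5:**
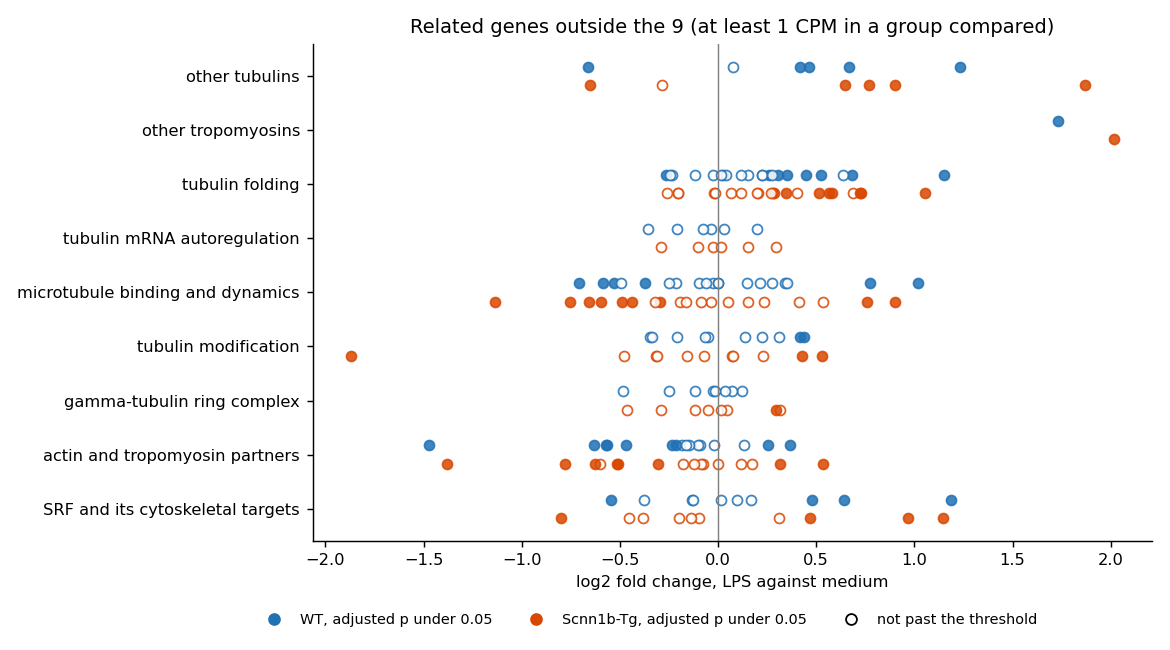
Log2 fold change with LPS (x axis) of the genes of each related list that reached 1 CPM in a group compared, in blue for WT and orange for Scnn1b-Tg, filled where the adj. P value was under 0.05. Tpm1 lies farthest to the right (1.73 and 2.02), and actin partners lie mostly left of 0.

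The AM markers summed to 8907 to 11157 CPM in WT LPS and 10653 to 15811 CPM in Scnn1b-Tg LPS libraries, and with LPS 3 of 10 were called higher and 5 lower in WT and 3 higher and 6 lower in Scnn1b-Tg, against 15.5% and 16.2% of all genes in WT and 19.3% and 18.7% in Scnn1b-Tg. Markers of cycling cells moved with LPS as well: 4 of 10 (Aurkb, Birc5, Ccnb1 and Ccnb2) were called lower in both genotypes, where 16.2% of all genes in WT and 18.7% in Scnn1b-Tg were, and their summed level was 84.7 to 123 CPM in WT medium and 47.8 to 86.2 CPM in WT LPS libraries, which overlapped, and 72.6 to 151 and 59.7 to 108 CPM in Scnn1b-Tg. Platelet and megakaryocyte markers, 5 of 6 in the table, summed to 0.815 to 1.34 CPM in WT medium and 2.46 to 5.17 CPM in WT LPS, and to 0.875 to 1.47 and 3.08 to 5.99 CPM in Scnn1b-Tg, with Pf4 called higher in both. The 4 monocyte markers summed to 0.570 to 1.02 CPM in WT medium and 0.850 to 1.44 CPM in WT LPS, and to 0.609 to 1.06 and 1.06 to 2.05 CPM in Scnn1b-Tg. Of the 3 tested, Ccr2 was called lower in both genotypes and Ly6c2 and Vcan higher in Scnn1b-Tg. Neutrophil markers, 4 of 7 in the table, summed to 9.48 to 12.5 CPM in WT LPS and 14.2 to 19.4 CPM in Scnn1b-Tg LPS. Of the 2 tested, which made up nearly all of the sum, S100a8 was called higher with LPS in both genotypes and Mmp8 lower in Scnn1b-Tg. Smooth muscle and fibroblast markers summed to 2.85 to 3.15 CPM in WT LPS and 3.52 to 5.10 CPM in Scnn1b-Tg LPS. Of the 2 tested, which made up nearly all of the sum, Pdgfrb was called higher and Pdgfra lower with LPS in both genotypes. Club cell markers summed to 54.0 to 86.6 CPM in WT LPS and 14.9 to 41.1 CPM in Scnn1b-Tg LPS. The part of these in the tubulin and tropomyosin changes was not tested.

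The gene with the most similar pattern was sought for each of the 9, among 9092 genes with at least 5 CPM. The measure was the root mean square difference of centred log2 CPM over the 12 libraries, after the batch difference was removed. Tubb2a was nearest to Tubb2b (0.060) and Tubb4b to Tubb4b-ps1 (0.069), each sharing read-length windows with it. Tubb6 was nearest to the glycerol kinase gene Gk (0.096), and Tpm4 to the sulfiredoxin gene Srxn1 (0.12). Tuba1c was nearest to Wdr75 (0.074), and Tuba1b to Ugp2 (0.057). The genes that moved little, Tubb5, Tuba1a and Tpm3, were nearest to Washc1 (0.085), Rab7b (0.034) and Utp6 (0.034), and such distances are small between any genes with little change. Within the 9, Tubb4b and Tuba1c (0.11), Tubb5 and Tuba1b (0.13), Tuba1a and Tpm3 (0.13) and Tubb2a and Tubb6 (0.14) were close, whereas Tuba1b and Tpm4 (0.76) were farthest apart.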

How the data were processed

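RNA of 12 AM libraries (SMART-Seq v4 cDNA, read pairs of 125 bp) was aligned by the authors to mm10 with HISAT2 in unstranded mode and quantified with StringTie against GENCODE M20. The deposited values are estimated counts per gene, converted from coverage to whole numbers, so that 1 read can be worth several counts. GENCODE M21, on the same build, gave symbols, positions and coding sequences, and RefSeq (GRCm38.p6) gave promoters.

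The 9 genes, the related gene lists and the markers were chosen with earlier results of these data known. Genes were filtered with filterByExpr (minimum count 10, minimum total 15), leaving 13729 of 20551. A quasi-likelihood model with group and library batch was fitted to all 12 libraries (edgeR 4.0.16, limma 3.58.1, R 4.3.3, TMM factors), with two-sided tests, Benjamini-Hochberg adjustment over all genes tested and a threshold of 0.05. Counts were simulated with folds put into the WT LPS group only and without batch or pool effects. There the fit recovered the folds for LPS against medium in WT. The other comparisons were not simulated. Alternatives were DESeq2 1.42.0, other scalings and filters, no batch term, blocks by pool and leaving out each library. Each pool held cells of several animals. Medium and LPS libraries of 1 genotype and number came from the same pool. Their deviations from group means, with batch not removed, correlated in all 6 pools (r from 0.137 to 0.335). WT and Scnn1b-Tg libraries of the same number shared batch, not animals, and correlated too (r from 0.110 to 0.261). The ranges overlap, so these correlations cannot tell a shared pool from a shared batch. From each related list, the 2 largest rises and 2 largest falls past the threshold in both genotypes were named, at a mean of at least 5 CPM and without overlap of libraries, with every tested tubulin and tropomyosin, and genes named in counts were added after their values were seen. SDs are over the 3 libraries of a group, and SEs come from the model fitted to all 12 libraries. No protein sequences were used here.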

Additional observations from a re-analysis of the deposited data

How the results depend on the processing

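The direction of each of the 9 genes with LPS and between genotypes was compared under 8 other settings (7 for the difference of responses) and with each of the 12 libraries left out in turn. Signs differed from those given for LPS in WT for Tuba1a (-0.05 to 0.10) and Tpm3 (-0.03 to 0.11), for LPS in Scnn1b-Tg for Tubb5 (-0.17 to 0.10), between genotypes with LPS for Tpm3 (-0.10 to 0.02) and in the difference of responses for Tubb5 (-0.05 to 0.21) and Tuba1b (-0.01 to 0.10), each only with a library left out, and none of these was called. Calls of Tubb2a, Tubb6, Tubb4b, Tuba1c and Tpm4 with LPS held in all 20 in each genotype. The 20 fits reuse the same libraries, and the choice of the 9 may have used these comparisons, so kept calls are a description only. Over all genes, 4359 were called with LPS in WT and 5225 in Scnn1b-Tg. The other settings called 3351 to 5305 and 4419 to 6178, and leaving out 1 library gave 3317 to 4368 and 4268 to 5517. In medium Tubb6 was called lower in 9 of 20, Tubb2a and Tpm4 in 17. Tuba1b kept its call in 17 of 20 in WT (not with only the libraries of the comparison) and 14 of 20 in Scnn1b-Tg (not without the low-count filter or the batch term). For Scnn1b-Tg against WT in medium, where 46 genes were called, DESeq2 called 501, fits without the low-count filter, without the batch term and with only the libraries of the comparison called 18, 28 and 20, and a replicate block by the numbers 16 to 19 called 77. Leaving out 1 library gave 3 to 49 genes and 0 to 3 of the 9. DESeq2 called 6 of the 9 there, adding Tubb4b, Tuba1a and Tuba1c. With LPS, where 7 genes were called, DESeq2 called 146 (1 of the 9), the fit without batch 4, that of the comparison's libraries 2, the replicate block by number 12 and a replicate block by pool as a random effect 11, and leaving out 1 library gave 2 to 10. For the difference of responses DESeq2 called 77, with 1 of the 9. The replicate blocks changed no call of the 9.

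In the related lists, LPS calls in WT became 1 of 6 autoregulation genes and 1 of 8 ring complex genes under either replicate block by pool, 3 of 19 microtubule binding genes and 3 of 18 actin partners with only the comparison's libraries, 4 of 18 actin partners without batch and 1 of 12 modifying enzymes without the filter. In Scnn1b-Tg they became 5 of 12 modifying enzymes under the random block, 3 of 8 ring complex genes under either block and 2 of 8 with only the comparison's libraries. Leaving out 1 library gave, in WT, 0 to 1 autoregulation, 2 to 7 microtubule binding, 1 to 3 modifying, 0 to 1 ring complex and 3 to 7 actin genes, and in Scnn1b-Tg 1 to 4 modifying, 0 to 2 ring complex and 2 to 5 serum response factor genes. Between genotypes in medium, DESeq2 called 3 tubulins outside the 9, 3 folding and 2 microtubule binding genes, and counts divided by 5 called 1 tubulin. It called 1 folding gene with LPS and 1 for the difference of responses. The cause was not tested in any of these. Depth is not known in reads, since 1 read may be worth several counts.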
